A study of Nezara viridula with 24 samples.

Results

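Salivary glands of Nezara viridula, the southern green stink bug, were set against the midgut in adults fed corn. The comparison takes 12 of the 24 libraries of the study, all those from insects given corn. They are 3 libraries of salivary glands and 3 each of the midgut sections M1, M2 and M3. All groups shared the corn diet, on which insects fed for 24 h after their moult to adult, and each library pooled tissue dissected from 4 to 10 individuals. The study also held 12 libraries from insects given green bean, used here only for a description at the end. Strain, sex and rearing batch of the pools are not given in the labels. The design text speaks of biological replication but does not say whether pools came from separate cultures, or whether those that share a replicate number came from one. The p-values therefore measure the spread between these pools, which may be technical.

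Stink bugs pierce plant tissue with their stylets and begin digestion outside the body. The salivary glands secrete the saliva that is injected into the food, including a sheath that hardens around the stylets and a watery fluid that carries digestive enzymes. The liquefied meal then passes through a midgut divided into sections, where digestion is completed and nutrients and water are taken up. Glands are secretory organs that devote much of their mRNA to a limited number of exported products, while the gut sections are numbered from front to back.

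The files hold estimated counts for assembled transcripts, named by Trinity, a program that builds sequences from the reads themselves. Isoforms were summed here to Trinity genes, 201329 in number, of which 17815 had enough counts to be tested. The files do not pair Trinity identifiers with gene names, so no gene can be given a function, the defining markers of gland and gut cells could not be examined, and each named gene stands for itself. Trinity genes can be fragments or near-identical copies of one gene, so their number is not a number of loci. Levels are given as CPM, the count scaled to a fixed library size after TMM normalisation, which corrects library sizes for differences in RNA composition. They depend on transcript length, which the files do not hold, and are therefore compared between tissues and not between genes.

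Library totals ran from 19541477 to 27125011 counts, and tested genes held between 98.6% and 99.8% of them. Replicate 1 of each tissue stood apart from replicates 2 and 3. It had counts in 80121 to 122696 Trinity genes, against 34859 to 59469 in the other libraries. Labels do not mention this division, which runs across all 4 tissues alike. In bulk tissue, fewer cells of a type and less RNA per cell cannot be told apart.

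Salivary glands and midgut differed in a large part of their transcriptomes. Genes higher in the glands held 72.4% ± 1.57 of all gland counts (SD, n = 3), whereas the M1, M2 and M3 libraries had 6.11% ± 1.5, 4.83% ± 1.14 and 6.14% ± 0.532 in the same genes (n = 3 in each section). Genes lower in the glands held 57.3% ± 2.75 of the counts in M1, 48.4% ± 1.84 in M2 and 46.9% ± 1.68 in M3, but 3.29% ± 0.14 in glands. These shares use the contrast that chose the genes, so they describe the size of the difference and do not test it. The genes were called by edgeR's quasi-likelihood test at a Benjamini-Hochberg adjusted p under 0.05. It set the glands against the mean of the 3 sections on the log2 scale. It called 6878 of 17815 genes, or 38.6%, with 3068 higher (17.2%) and 3810 lower (21.4%) in glands. The median log2 fold change was 2.70 for the higher genes and -3.40 for the lower ones, against -0.14 over all tested genes. Without any filter on low counts the balance of this contrast turned around, with 4944 higher and 3632 lower among 174374 genes. It did not turn for glands against single sections. There the unfiltered fit gave 2189 higher and 3041 lower for M1, 2262 and 3336 for M2, and 2220 and 3337 for M3.

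**Figure D1:**
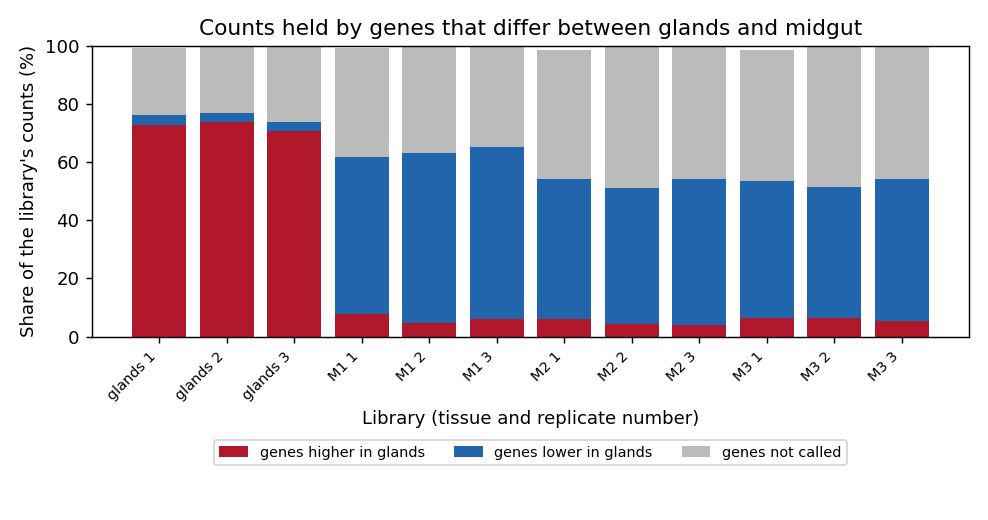
Share of each library's counts (%) held by genes higher in glands, lower in glands and not called, for the 12 corn libraries by tissue and replicate number. Gland libraries are filled mostly by the higher genes, at 72.4% on average, and midgut libraries by the lower genes and those not called; the part missing to 100% belongs to genes not tested.

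Separation between the tissues was complete for most of the called genes. All 3 gland libraries lay above all 9 midgut libraries in 2437 of the 3068 higher genes, and below all 9 in 2685 of the 3810 lower genes. Over all tested genes, called or not, 14.2% showed the first pattern and 15.6% the other. Gland replicate 1 was the lowest of the 3 gland libraries, ties left out, in 52.2% of the higher genes, 43.4% of the lower genes and 34.8% of the genes not called. With replicate 1 of every tissue left out, 6788 genes were called, 3226 higher and 3562 lower, and 6094 of the 6878 were among them with the same sign.

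The 2 higher genes with the largest counts in glands were TRINITY_DN629_c0_g1 and TRINITY_DN30_c0_g1. TRINITY_DN629_c0_g1 measured 56692, 105996 and 104049 CPM in gland replicates 1, 2 and 3. Its midgut levels were 27.6, 94.1 and 47.0 CPM in M1, 79.1, 82.5 and 117 in M2, and 106, 93.0 and 105 in M3. The gland and midgut libraries thus lay far apart, with the lowest gland library being replicate 1, and its log2 fold change was 10.10 (SE 0.46, edgeR adjusted p = 1.7444e-09).

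TRINITY_DN30_c0_g1 measured 43942, 66902 and 62333 CPM in the gland libraries. In M1 it stood at 13.8, 48.9 and 24.7 CPM, in M2 at 18.8, 39.7 and 56.3, and in M3 at 19.2, 16.6 and 21.4. No midgut library came near a gland library, and the log2 fold change was 11.03 (SE 0.50, edgeR adjusted p = 1.7507e-09). For neither gene did the joint test of the 3 sections pass (adjusted p = 0.64119 and 0.59883).

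The 2 lower genes with the largest counts in the midgut differed from each other in their course along the gut. TRINITY_DN378_c0_g1 measured 34164, 56416 and 111488 CPM in M2, 5638, 7039 and 9182 in M3, and 349, 434 and 388 in M1. Gland libraries held 50.2, 125 and 102 CPM, below every midgut library, with M1 the nearest section. Its log2 fold change against the mean of the sections was -5.97 (SE 0.63, edgeR adjusted p = 6.5043e-06), and against the single sections it was -2.08 for M1, -9.51 for M2 and -6.30 for M3. When the 9 midgut libraries were taken as 1 group, the value was -8.08 (adjusted p = 0.015795).

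TRINITY_DN256_c0_g2 fell along the gut, from 10340.0, 40385 and 28668 CPM in M1 through 3839, 12724 and 15800.4 in M2 to 2357, 1672 and 3916 in M3. Glands held 22.1, 57.8 and 59.6 CPM, far below all sections. Its log2 fold change was -7.61 (SE 0.85, edgeR adjusted p = 1.2128e-05), and its sections differed in the joint test (adjusted p = 0.020414).

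The largest folds were found on the gland side. Folds were here the ratio of tissue means in CPM, and not the log2 fold change of the test, which averages the sections on the log2 scale. With a tissue under 3 counts in all set to that floor, 1228 genes were at least 10-fold and 618 at least 100-fold higher in glands. Among the lower genes 1623 were at least 10-fold lower, 452 at least 100-fold and 0 at least 1000-fold, while 246 were at least 1000-fold higher. Those 246 genes held 55.1% ± 1.38 of gland counts (SD, n = 3). The depth would have allowed a 1000-fold difference in 913 lower and 1478 higher genes. The largest ratio was 3721 for a higher gene and 686 for a lower one.

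For abundant genes with large folds, the level left in the other tissue was read library by library. Of the higher genes, 223 had at least 100 CPM in glands and a ratio of at least 100. In M1 replicate 2 their median level was 0.102% of their gland level, with quartiles of 0.0831% and 0.135%, and in M1 replicate 1 it was 0.0297%, with quartiles of 0.0235% and 0.0443%. Over the 9 midgut libraries the median lay between 0.0297% and 0.114%, and across these 223 genes log2 CPM in a midgut library correlated with log2 CPM in glands at r of 0.83 to 0.93. That correlation is across genes that share libraries and a choice by fold, and is given as a description. The ratios of these genes had a median of 1712 and quartiles of 1294 and 1943. Over all 441 higher genes with at least 100 CPM in glands, not chosen by ratio, the median was 117 and the quartiles 2.72 and 1717.

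In the other direction, 208 lower genes had at least 100 CPM in the midgut and a ratio of at least 100. Their median level in glands was 0.195% of the midgut mean in replicate 1, 0.509% in replicate 2 and 0.589% in replicate 3, and their ratios had a median of 219 with quartiles of 179 and 265. Over all 698 lower genes with at least 100 CPM in the midgut the median ratio was 13.1, with quartiles of 3.44 and 159. The percentages in glands and in midgut libraries come from different genes, each chosen by ratio, and the former refer to a mean over 3 sections, so they are not compared. Of the genes at least 100-fold apart at any level, 74 of the 618 higher ones had no midgut count and 12 of the 452 lower ones no gland count. Of those 698 genes, 696 had counts in every gland library. Whether these counts are transcripts made in the tissue or RNA carried over between tissues or libraries was not tested.

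**Figure D2:**
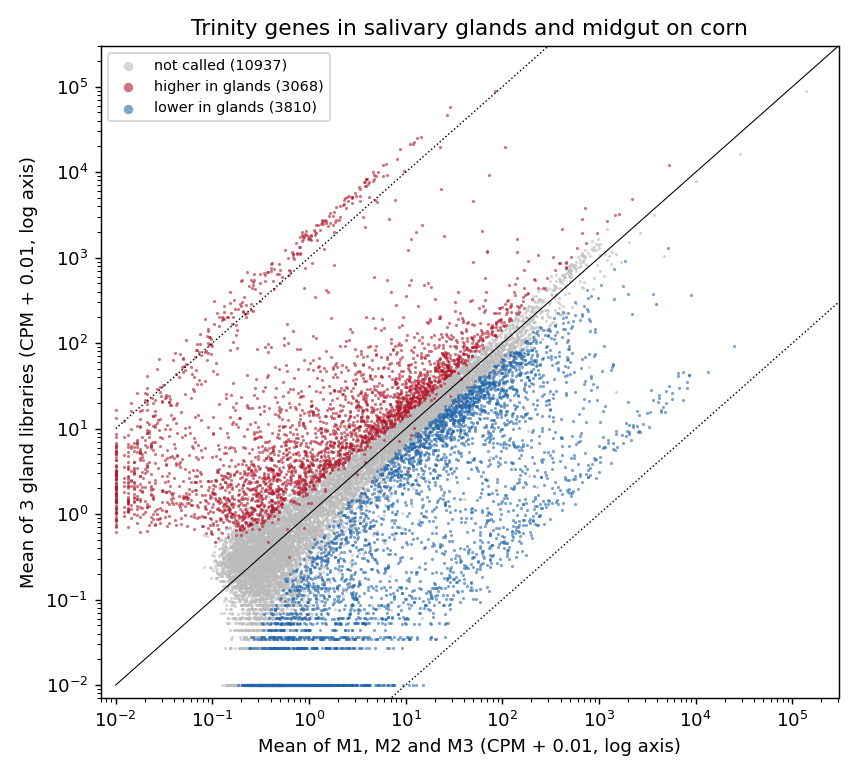
Mean level of each tested gene in the 3 gland libraries (vertical) against the mean of M1, M2 and M3 (horizontal), in CPM + 0.01 on log axes, coloured by call. The solid line marks equal levels and the dotted lines mark a 1000-fold difference; a band of gland genes runs parallel to the upper dotted line, and among genes with gland counts none lies beyond the lower one. Genes with no gland count sit on the bottom edge at 0.01, where their distance from the line is set by that added value.

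**Figure D3:**
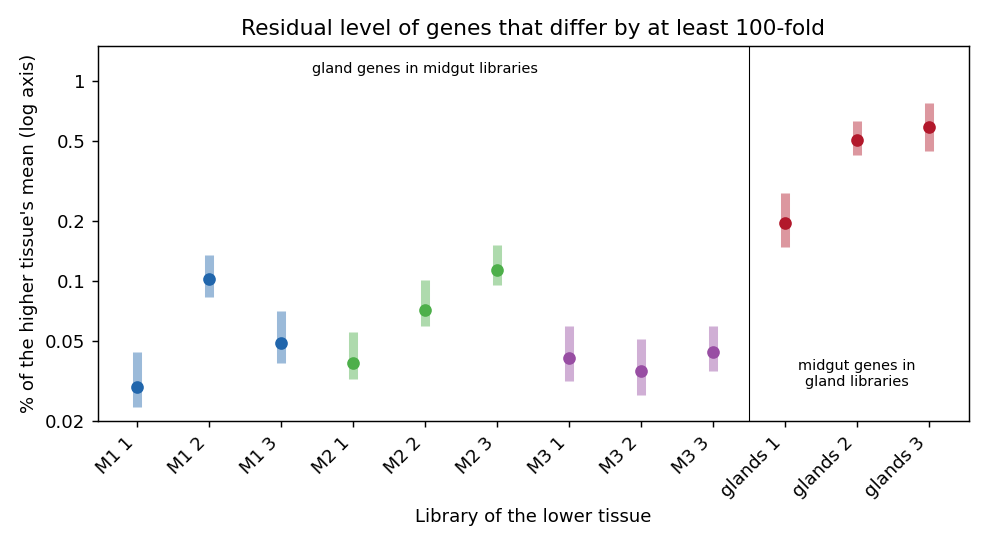
Level of genes that differ by at least 100-fold, as a percentage of their mean in the higher tissue (log axis), for each library of the lower tissue. Points are medians and bars run from the first to the last quartile boundary, over 223 gland genes in midgut libraries (left) and 208 midgut genes in gland libraries (right); the gland libraries lie between 0.195% and 0.589% and the midgut libraries between 0.0297% and 0.114%, for different genes.

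Each section was also compared with the glands on its own. Against M1, 5691 genes were called (31.9%), 2448 higher (13.7%) and 3243 lower (18.2%) in glands. For M2 the test called 6315 genes (35.4%), 2630 higher (14.8%) and 3685 lower (20.7%). With M3 as the reference 5887 genes passed (33%), 2543 higher (14.3%) and 3344 lower (18.8%). These comparisons share the gland libraries and are not independent. M2 had the most calls when the spread was estimated over all 12 libraries, but the fewest when each fit held 6 libraries, with 5305 called in M2, 5545 in M1 and 6304 in M3.

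Distance to the glands was measured for each midgut library as the root mean square, over all tested genes, of its log2 CPM minus the mean log2 CPM of the 3 gland libraries. M1 libraries lay at 2.69, 2.81 and 2.70 in replicates 1, 2 and 3, M2 libraries at 2.59, 2.57 and 2.68, and M3 libraries at 2.56, 2.44 and 2.53. M1 was farthest in every replicate number and M3 nearest, and no M1 library overlapped with M2 or M3, nor M2 with M3. Section means were 2.73 ± 0.066 for M1, 2.62 ± 0.0579 for M2 and 2.51 ± 0.0615 for M3, with the SD of 3 libraries. An exact permutation test of the section labels over the 9 libraries gave p = 0.00357, the smallest it allows. For scale, the means of M1 and M2 were 1.17 apart, those of M2 and M3 0.95, and those of M1 and M3 1.5.

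The order of the sections, and its test, depended on how distance was measured. Measured as 1 minus the Spearman correlation, the order of the sections was the same, at 0.325, 0.306 and 0.294, but the exact permutation test gave p = 0.279. With no filter on low counts p was 0.704 (exact permutation test). Over the 500 genes of largest variance the order of M2 and M3 turned, with distances of 9.33 for M1, 8.41 for M2 and 8.44 for M3 (exact permutation p = 0.0286). Over all tested genes p was 0.0536 without gland replicate 1, 0.0607 without M2 replicate 1 and 0.0571 without M2 replicate 2 (exact permutation tests).

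The distance was also taken over the higher and the lower genes apart. Over the 3068 higher genes the distance was 4.33 ± 0.0708 for M1, 4.34 ± 0.014 for M2 and 4.35 ± 0.052 for M3 (SD, n = 3 each), so that sections differed by less than the spread between replicates. Over the 3810 lower genes it was 3.91 ± 0.211 for M1, 3.50 ± 0.138 for M2 and 3.23 ± 0.113 for M3. There the M1 libraries lay above all others and the M3 libraries below all others. No p is given for these parts, since the genes were chosen by the contrast with the glands.

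**Figure D4:**
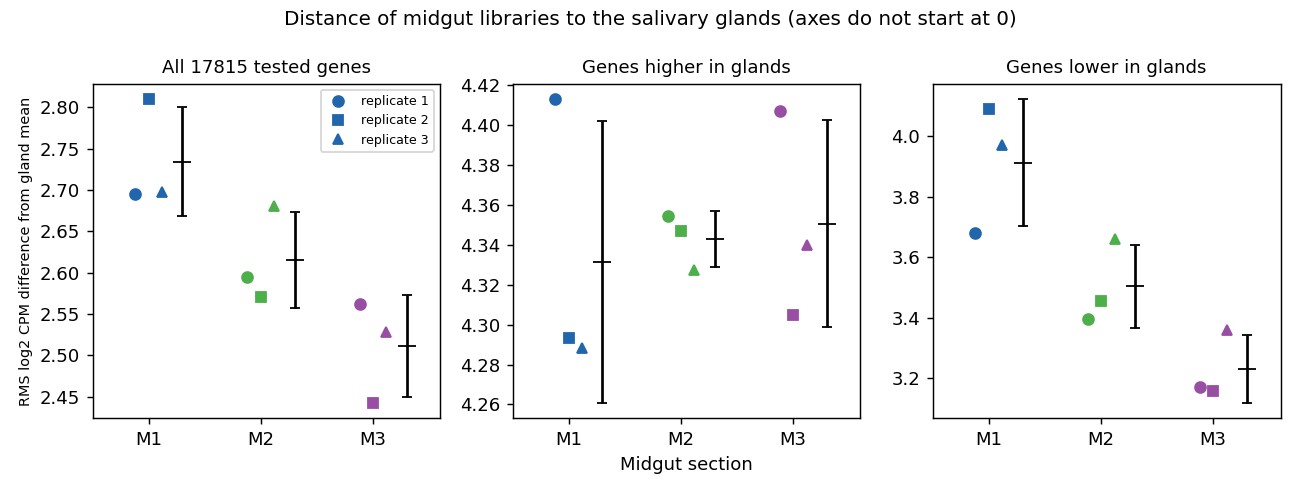
Root mean square difference in log2 CPM between each midgut library and the gland mean, by section, over all tested genes (left), genes higher in glands (middle) and genes lower in glands (right). Symbols are replicate numbers, the black marks give the mean and SD of 3 libraries, and axes do not start at 0; M1 lies above M3 on the left and right, while the sections overlap in the middle.

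The sections were then compared with each other, without the glands in the contrast. Jointly, M1, M2 and M3 differed in 2041 of 17815 genes, or 11.5% (edgeR, adjusted p under 0.05). This fit had no replicate block. The count was larger with one, as given in the closing section, and the shares below come from the fit without it. Of the genes lower in glands, 1080 of 3810 differed between sections (28.3%), and of those higher in glands 353 of 3068 (11.5%). Among genes not called in the gland comparison the share was 5.56%. These shares are a description, since the lower genes were chosen by their level in the same midgut libraries. The median midgut mean was 10.3 CPM for the lower, 1.09 CPM for the higher and 1.12 CPM for the genes not called, and a higher level gives a test of sections more counts. Of the 452 genes at least 100-fold lower in glands, 292 differed between sections (64.6%), and 301 had their highest section mean in M1 (66.6%), 91 in M2 (20.1%) and 60 in M3 (13.3%). Over all tested genes the shares were 34.5%, 30.6% and 34.4%. Of the 618 genes at least 100-fold higher in glands, 11 differed between sections (1.78%). The median of their midgut means was 0.0333 CPM.

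Set against the mean of the other sections, M1 differed in 10.9% of all tested genes, M2 in 2.32% and M3 in 9.54%. M1 was higher than the rest of the midgut in 693 of the 3810 lower genes, against 6.52% of all tested genes. M2 was higher in 164 of them, against 1.5% of all tested genes, and M3 in 303, against 4.51%. Conversely, M3 was lower than the rest in 602 of them, against 5.03% of all tested genes, and M1 in 347, against 4.38%. M2 was lower in 87 of them, against 0.825%.

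Named genes for each section were those whose level there departed most from the other sections in the direction that set it apart from the glands. For M1, TRINITY_DN3785_c0_g1 was present in glands at 154, 337 and 324 CPM, in M2 at 164, 326 and 253 and in M3 at 128, 170.3 and 229. In M1 it measured 4.24, 7.24 and 6.07 CPM. Glands overlapped with M2 and M3 for this gene and the M1 libraries were lower than all others, with a log2 fold change of glands against M1 of 5.54 (SE 0.47, edgeR adjusted p = 1.2252e-06).

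TRINITY_DN1666_c0_g2 had a like course, with 69.3, 106 and 71.7 CPM in glands and 1.97, 6.41 and 7.34 in M1, against 289, 353 and 161 in M2 and 77.0, 139 and 463 in M3. Glands exceeded M1 by 3.99 on the log2 scale (SE 0.70, edgeR adjusted p = 0.00064371). In the other direction, TRINITY_DN4715_c0_g1 was found almost only in M1, at 39.4, 483 and 161 CPM, with at most 0.151 CPM in any M2 or M3 library and 0.204, 0.664 and 0.316 CPM in glands. Its log2 fold change of glands against M1 was -9.20 (SE 1.02, edgeR adjusted p = 1.3656e-05), with -8.02 without M1 replicate 2, the highest library, and -9.80 without gland replicate 2.

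TRINITY_DN4282_c0_g1 measured 244, 1226 and 569.7 CPM in M1 and 0.204, 1.18 and 4.74 CPM in glands. M2 held 0.332, 0.447 and 0.780 CPM and M3 0.161, 0.297 and 0.452. The log2 fold change of glands against M1 was -8.42 (SE 1.05, edgeR adjusted p = 3.899e-05), and its size depended on single libraries, at -10.01 without gland replicate 3 and -7.68 without M1 replicate 2.

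For M2, the gene with the largest departure upward was TRINITY_DN3036_c0_g1. It measured 648, 947 and 1654 CPM in M2, 9.63, 4.89 and 5.31 in M1, 1.12, 0.742 and 1.81 in M3, and 0.764, 2.29 and 1.34 in glands. Glands and M3 overlapped at this low level, and the log2 fold change of glands against M2 was -9.55 (SE 0.69, edgeR adjusted p = 4.1517e-07). TRINITY_DN10774_c1_g1 followed with 9.55, 16.5 and 50.4 CPM in M2 and 3 counts in all gland libraries, a ratio of 343 with a 95% exact binomial interval from 117 to 1666, which covers counting error only (edgeR adjusted p = 1.4759e-05). Its fitted log2 fold change of -8.46 ranged from -9.49 without gland replicate 3 to -7.48 without M2 replicate 3, and was -7.74 without gland replicate 1.

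The genes named for low levels in M2 were present in M1 and M3. TRINITY_DN36_c3_g3 measured 33.9, 60.7 and 41.6 CPM in glands, 23.8, 43.7 and 14.3 in M1, 17.0, 7.90 and 2.83 in M3, and 1.24, 0 and 0.390 in M2. Glands exceeded M2 by 6.31 (SE 0.99, edgeR adjusted p = 0.00031165) on the log2 scale, or by 7.92 without M2 replicate 1 and 8.07 with replicates 2 and 3 alone. TRINITY_DN1026_c0_g1 was at 78.0, 48.1 and 31.4 CPM in glands and at 9.46, 7.36 and 18.2 in M2, a log2 fold change of 2.17 (SE 0.59, edgeR adjusted p = 0.012424). The call was lost without gland replicate 1 (adjusted p = 0.050479) or M2 replicate 2 (0.057811). M1 held 1013, 4085 and 1704 CPM of it, so that glands lay between sections.

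For M3, TRINITY_DN5742_c0_g1 measured 15, 21.2 and 23.0 CPM in glands and 0.121, 0.148 and 0.151 in M3, with 55.7, 141 and 142 in M1 and 1.24, 5.85 and 3.95 in M2. The levels fell from section to section, and glands took a place between M1 and M2 without overlap with either. Its log2 fold change against M3 was 7.11 (SE 0.66, edgeR adjusted p = 3.3922e-06). TRINITY_DN2943_c0_g2 had the same order at higher counts, with 8592, 11269 and 14638 CPM in M1, 224, 207 and 422 in glands, 33.7, 16.2 and 23.2 in M2 and 7.21, 7.66 and 9.17 in M3. Glands exceeded M3 by 5.15 (SE 0.50, edgeR adjusted p = 4.9695e-06) on the log2 scale.

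M3 also had genes of its own. TRINITY_DN1548_c0_g1 measured 37.2, 23.6 and 48.5 CPM in M3 and at most 0.341 CPM in any other library, with 4 counts in glands in all. The ratio of M3 to glands was 418 (95% exact binomial interval 163 to 1536, edgeR adjusted p = 2.4809e-06). TRINITY_DN9031_c0_g1 measured 8.42, 5.97 and 25.4 CPM in M3, had 3 gland counts and was at 0 in every M1 library. Its ratio of M3 to glands was 191 (65.4 to 929.6, edgeR adjusted p = 0.00012157). The fitted log2 fold change of -7.50 moved to -8.54 without gland replicate 3, -6.79 without gland replicate 1 and -6.60 without M3 replicate 3.

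**Figure D5:**
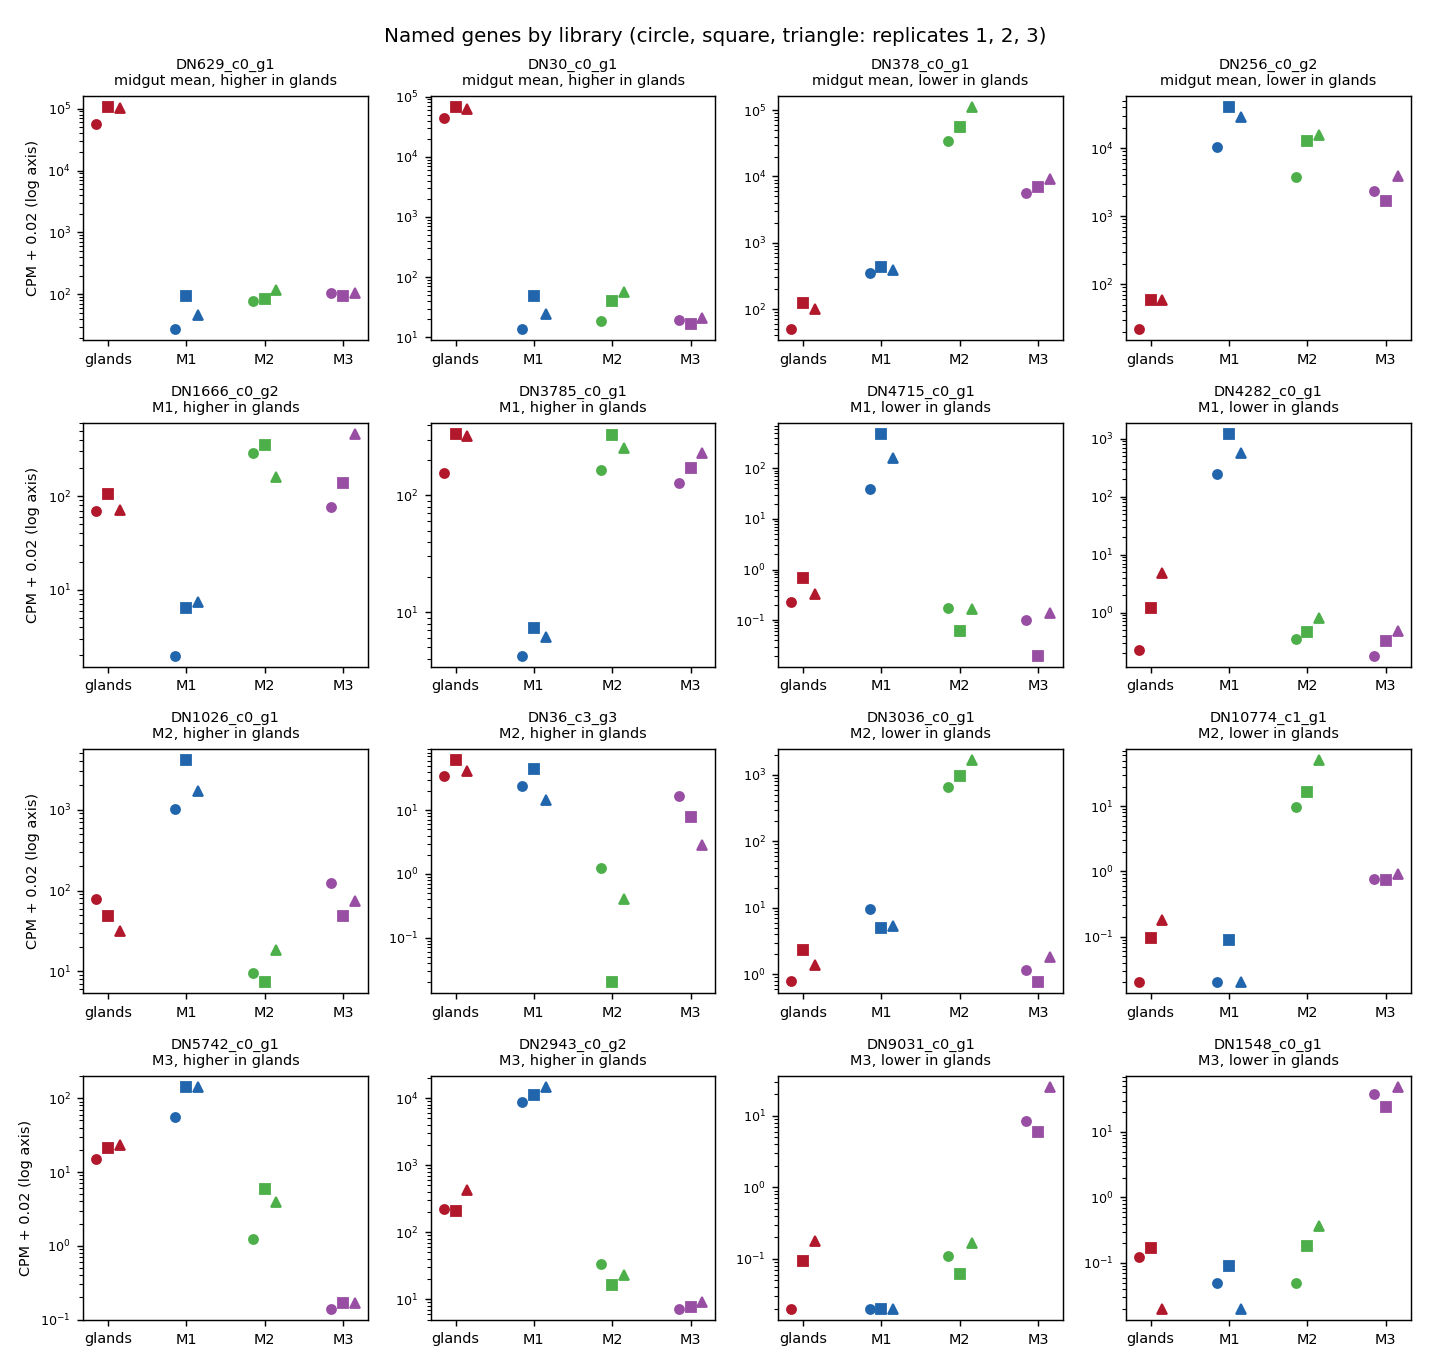
Level of each named gene in the 12 corn libraries (CPM + 0.02, log axis), with the comparison that named it and its direction above each panel. Colours are tissues and symbols replicate numbers; the genes in the top row differ between glands and all sections, and those in the other rows mark M1, M2 or M3.

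Summing isoforms changed which genes could be seen. Isoforms tested as they stand gave 9238 calls among 37229, and 1834 of the 6878 called genes had no called isoform. Of 255 genes with isoforms called in both directions, 89 were higher, 79 lower and 87 not called once summed. The summing also shrank the largest falls: 29 isoforms were at least 1000-fold lower in glands, and the 26 genes to which they belong had a median ratio of 10.4 and none above 303. Isoforms of a gene share reads, and how the quantifier divided them is uncertain.

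Called genes were spread over levels and isoform numbers. Under a mean of 1 CPM over the 4 tissues 24.5% of genes were called, and at 100 CPM or more 67.2% (279 higher and 581 lower of 1280). Genes with 1 isoform were called in 36.2% and those with 5 or more in 41.2%. In the same order, 17.6% and 17.1% were higher in glands, and 18.7% and 24.1% lower. Some called genes came from one Trinity component, a set of sequences assembled together because they resemble or overlap each other. Of 550 components with at least 2 called genes, 148 had only higher and 248 only lower genes, and 154 had both.

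The number of genes that hold 50% of a library's counts was 41, 37 and 37 in gland replicates 1, 2 and 3. It was 115, 45 and 55 in M1, 125, 61 and 31 in M2, and 182, 139 and 99 in M3. M2 replicate 3 lay below all gland libraries, and an exact permutation test of 3 gland against 9 midgut libraries gave p = 0.0682, two-sided. A single gene not called between tissues, TRINITY_DN223_c10_g2, weighed on these numbers. It held the most counts of any gene in all 9 midgut libraries, at 9.09% to 19.7%, with 19.1% in M2 replicate 3. In gland replicate 3 it was also the largest, at 7.93%. For 80% of the counts the groups were at 316 ± 77.9 genes in glands and 994 ± 398 in the midgut (SD, n = 3 and 9, exact permutation p = 0.0227). Both tests treat all libraries as exchangeable, although replicate numbers may pair them. Permuted within replicate numbers, p for 50% was 0.0625 (exact permutation test), and for 80% that test was not run. In the midgut, replicate 1 had the highest number of each section.

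Libraries from green bean had no part in choosing these genes. Their gland and midgut counts stand in tables that were made apart, so levels are set across tables and no test was run. Of the 3068 genes higher in glands on corn, 98.1% were also higher in glands on green bean, against 46.8% of all tested genes, and in 73.1% all gland libraries exceeded all those of the midgut, against 20% of all tested genes. Of the 3810 lower genes, 98.2% were lower on green bean, against 53.2% of all tested genes, and 62.8% had all gland libraries below all midgut libraries, against 21.2% of all tested genes. For the 618 genes at least 100-fold higher on corn the share without overlap was 98.1%, and for the 452 at least 100-fold lower it was 60.6%. The log2 difference of glands from the midgut mean correlated between diets at Pearson r = 0.93 and Spearman rho = 0.84 across 17815 genes. These genes are not independent replicates.

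Higher genes took 70.8% ± 4.61 of green bean gland counts (SD, n = 3), and lower genes 51.3% ± 1.69 in M1, 48.4% ± 1.12 in M2 and 43.4% ± 2.25 in M3. Both named gland genes were also far apart there. TRINITY_DN629_c0_g1 measured 107117, 46138 and 28064 CPM in green bean glands and 19.1 to 348 CPM in green bean midgut, with the highest value in M1 replicate 1. Some genes named for a section lost their separation on green bean. TRINITY_DN1666_c0_g2 measured 99.0, 48.3 and 48.0 CPM in glands and 54.6, 68.5 and 125 in M1. TRINITY_DN36_c3_g3 and TRINITY_DN1026_c0_g1 overlapped between glands and M2. The remaining named genes kept glands and their named section apart, but TRINITY_DN5742_c0_g1 and TRINITY_DN2943_c0_g2 overlapped with M2, unlike on corn. TRINITY_DN256_c0_g2 did not fall from section to section on green bean. It measured 8791, 5676 and 5547 CPM in M1, 4044, 1172 and 4990 in M2, and 8408, 4086 and 4719 in M3. Genes at least 100-fold lower on corn took 0.621%, 0.0539% and 0.536% of the counts in green bean gland replicates 1, 2 and 3. Replicates 1 and 3 were thus higher than replicate 2. The genes were chosen for their low level in the corn glands, so the share there, 0.0627% to 0.125%, is no fair reference. Distances of the sections to green bean glands were 2.57 ± 0.049 for M1, 2.56 ± 0.033 for M2 and 2.50 ± 0.0109 for M3 (SD, n = 3 each). M1 and M2 overlapped there, with M1 replicate 1 at 2.52, below every M2 library, and the M3 libraries were the nearest.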

How the data were processed

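Estimated counts per transcript, deposited as whole numbers in tables for corn, glands and midgut, were used as they stand. Trim Galore 0.4.4, Salmon 0.12 and DESeq2 1.20.0 are named in the submitters' processing notes, with no role or order given. Isoforms of the corn table were summed to Trinity genes and filtered with filterByExpr by tissue. Fits used R 4.3.3 and edgeR 4.0.16 with TMM scaling, glmQLFit (robust) and glmQLFTest over all 12 libraries, two-sided, with Benjamini-Hochberg adjustment over all genes tested. Standard errors are log2 fold changes divided by the square root of F. Log2 CPM used a prior count of 2. DESeq2 1.42.0 served as an alternative test, and the procedure was tested on simulated data. Those data had changes planted in some genes and no division by replicate number, so they do not vouch for the calls here. Members, gene groups and tests were chosen with earlier results of these data known. Named genes for the midgut mean were the 2 with the largest mean CPM in each direction that changed at least 2-fold without overlap. For a section, they were the 2 in each direction with the largest departure of that section from the others, called in both contrasts, with no overlap of glands and section and at least 10 CPM. Replicate pairs of a tissue differed by 54.9 to 256 times the sampling noise, so none appeared to be one library deposited in duplicate. Deviations from tissue means correlated at 0.24 to 0.65 between gland and section libraries of the same replicate number, over all 9 pairs, so the numbers may pair the samples in the gland comparisons. The reported tests have no replicate block, and the fit with it is an alternative. This pairing comes from the data and not from the labels, and pairs of replicates 2 with 3 also correlated, at 0.12 to 0.37. Alternatives were DESeq2 scaling, DESeq2, no filter, a replicate block, isoforms as they stand, 1 midgut group, 6 libraries per fit, replicates 2 and 3 alone, and each library left out with the genes of the full fit.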

Additional observations from a re-analysis of the deposited data

Results flagged for a closer look

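Glands were higher than one section and lower than another, both by edgeR's adjusted p, in 100 genes. That choice already requires the sections to differ, so their joint test, passed by all 100, adds no separate evidence. In 68 of them M1 lay above the glands with M2 or M3 below, and in 30 M1 lay below with M2 or M3 above. In the 68, the gland level had a median of 16.3% of the M1 level, with quartiles of 6.22% and 27.8%, and 7 were under 1%. The 208 genes at least 100-fold lower in glands and at 100 CPM or more in the midgut stood in gland libraries at a median of 0.195% to 0.589%, but of the midgut mean and not of the M1 level. The 208 were chosen by their ratio and the 68 by a gland level above M2 or M3. The percentages are therefore not compared. Whether counts like those left in glands for the 208 genes had a part in the pattern was not tested.

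Of the named genes, 4 showed it, all with M1 above the glands. In edgeR, TRINITY_DN2943_c0_g2 had adjusted p = 3.1391e-06 against M1 and 4.9695e-06 against M3, and TRINITY_DN5742_c0_g1 had 0.0015062 against M1 and 3.3922e-06 against M3. The other two rest on a weaker call on their low side. TRINITY_DN4282_c0_g1 had adjusted p = 3.899e-05 against M1 and 0.039245 against M3, where gland replicate 1, at 0.204 CPM, lay within the M3 range of 0.161 to 0.452 CPM. TRINITY_DN1026_c0_g1 had 4.3457e-05 against M1 and 0.012424 against M2, and the latter call was lost without gland replicate 1 or M2 replicate 2. For these genes in turn, the joint edgeR test of the sections had an adjusted p = 2.7925e-07, 2.3176e-06, 1.1094e-05 and 2.0563e-05. The gland levels were 2.47%, 17.5%, 0.3% and 2.32% of the M1 levels, again in turn.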

How the results depend on the processing

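The counts of genes called in the gland comparisons stayed within 1.5 times of their values under every alternative run, and at the gene level no gene called in both fits changed sign. Like counts did not mean the same genes. Of the 6878 genes called for the midgut mean, 5282 were called again with no filter, and 6855 with a replicate block. With no filter, 4313 of 5691 were kept for M1, 4627 of 6315 for M2 and 4395 of 5887 for M3. Leaving out 1 library gave 5630 to 7244 calls for the midgut mean, 4793 to 5989 for M1, 5146 to 6611 for M2, 4816 to 6218 for M3 and 1532 to 2331 for differences between sections. With a replicate block, 9000 genes were called for the midgut mean, 7400 for M1, 8556 for M2 and 8022 for M3. Between sections the block gave 3767 instead of 2041. Section libraries of the same replicate number correlated at r = 0.094 to 0.693, with the pairs of replicate 1 at 0.633 to 0.693. The block ended no call of a named gene. Of 288 pairs of a named gene and an alternative, 286 kept direction and call, and the other 2 concern TRINITY_DN1026_c0_g1. The named genes were chosen for a call without overlap in the same libraries, so this count is no separate evidence. The distance of M1 minus that of M3 was 0.22 and stayed positive in the alternatives run, but M2 and not M3 was nearest over the 500 genes of largest variance (difference 0.887). It was 0.185 to 0.246 with 1 library left out (exact permutation p from 0.00357 to 0.0607), 0.0305 as 1 minus Spearman correlation, 0.0441 with no filter, and 0.24 with replicates 2 and 3 alone, where p = 0.0667 is the smallest the exact permutation test allows. With section labels permuted within replicate numbers p was 0.0278, also the smallest possible. Glands minus midgut in genes holding 50% of counts was -56.3, with -64.3 to -45.4 when 1 library was left out (p = 0.0424 in the exact permutation test without M2 replicate 3), and -678 at 80%. The causes were not tested. DESeq2 gave no adjusted p for 118 genes. Fold sizes of genes without a count in a tissue are limited by depth. Where a few counts were present, they limited the fold, and their origin was not tested.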
